A study of Mus musculus with 6 samples.

Results

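The genes described here build and load MHC class I, the cell-surface complex that displays peptides from inside a cell. They are B2m, H2-K1, H2-D1, Tap1, Tap2, Tapbp, Psmb8 and Psmb9. A probe set, the group of array probes that together read 1 transcript, was taken when its only gene symbol in the array annotation was one of these 8. This gave 15 probe sets for the 8 genes, among 12422 probe sets tested and 8251 genes with a probe set of a single symbol. The rule reads the annotation and no measured value, but the genes were chosen with earlier results of these data known.

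Cerebellum was taken at postnatal day 11 from 3 male L1cam knockout mice (L1CAM knockout, -/Y) and from 3 wild type siblings, all of strain 129S2/SvPasCrlf. L1cam is an adhesion molecule of growing axons, encoded on the X chromosome, and the labels list no treatment in either group. The sex of the wild type mice is not stated, and the series' design text counts 1 mouse per array. Values are RMA log2 values from Affymetrix Murine Genome U74Av2 arrays, so a difference of 1 is a doubling.

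A class I molecule is a heavy chain, such as H2-K1 or H2-D1, bound to the light chain B2m and to a short peptide. Peptides are cut by proteasomes, pumped into the endoplasmic reticulum by the transporter Tap1/Tap2 and loaded with the help of tapasin, the product of Tapbp. Interferon raises all of these genes in many cell types, and in the mouse brain class I is carried by endothelium and glia and also by neurons, where it is known for a role in synapse refinement and in cerebellar plasticity.

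The promoter stretches of the light chain and both heavy chains are shown because interferon and NF-kappaB are known to act on class I genes through elements close to the start. They come from RefSeq, build GRCm38.p6, written 5' to 3' on the strand of each gene, from windows of 250 bases before to 50 bases after a transcript start. Capitals mark 2 motifs that a script searched on both strands, the interferon regulatory factor core AANNGAAA and the NF-kappaB-like GGGNNTTNC. The B2m stretch lies at chr2:122147540-122147580 on the plus strand, that of H2-K1 at chr17:34000420-34000468 on the minus strand and that of H2-D1 at chr17:35262913-35262961 on the plus strand.
B2m: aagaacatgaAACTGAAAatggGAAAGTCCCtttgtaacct
H2-K1: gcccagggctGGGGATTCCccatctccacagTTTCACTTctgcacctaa
H2-D1: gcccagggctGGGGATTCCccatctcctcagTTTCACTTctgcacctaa

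The heavy chain stretches share 48 of 49 bases, and in B2m the order of the motifs is turned round. A window for 7 of the 8 genes was found in the RefSeq promoter table. Both motifs stood together in the windows of these 3 genes and of none of Tap1, Tapbp, Psmb8 and Psmb9. Of all 32851 promoter windows, 23.9% held the first motif, 15.2% the second and 3.6% both. CCAAT, the letters of a common promoter box, was also searched and stood in a window of each matched gene but Psmb8, and in 37.4% of all windows. The windows of Tap1 and Psmb9, which run in opposite directions from neighbouring starts on chromosome 17, share 275 of their 300 bases. A match of letters is a description and not a binding site.

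Before the comparison, the arrays were checked against their labels. L1cam read 8.25, 8.01 and 7.91 in the knockout arrays and 8.79, 8.48 and 8.73 in the wild type arrays, a difference of -0.60 (SE 0.10) that did not pass in limma (adjusted p = 0.841). Knockout 1 stood apart in Y-linked genes: Eif2s3y read 7.11 there and 8.59 or more in every other array, and Uty read 6.67 there and 7.32 or more in the rest. Kdm5d, also Y-linked, did not set it apart, at 7.217 there and 7.218 in wild type 2. Xist read between 6.31 and 6.41 in all arrays. Its Gapdh controls also stood apart, with the 3' control above the 5' one by 0.668 there and by 0.130 or less in the rest. The other control transcripts set it less apart or not at all: the same gap was 1.088 there and at most 0.950 elsewhere for actin, 0.879 there and 0.851 in wild type 1 for PyruCarb, 1.334 there and 1.481 in knockout 3 for TransRec, and within the range of the rest for 18S. Knockout 1 is labelled male and was low in Eif2s3y and Uty, while Kdm5d and Xist did not set it apart. Its L1cam value was the highest of the knockouts though below all wild type arrays. Whether its label or its RNA sets it apart was not tested. Values without knockout 1 are therefore given below. Pcp2, Cbln1, Gabra6 and Zic1, genes of the cerebellum, each had a probe set at or above percentile 96.8 of mean level. Of the forebrain markers, Drd2 and Tbr1 were measured, at percentiles 32.6 and 28.0. Of 15 probe sets for cerebellar genes 2 had a higher knockout mean, where 37.7% of all probe sets did, and none passed the threshold. Atoh1 differed by -0.13, En2 by -0.18, Pvalb by -0.15 and -0.06 and Zic1 by 0.02. Gabra6 differed most, by -0.23 and -0.26, but at the latter probe set the wild type arrays ran from 11.30 to 12.28. The count of higher cerebellar probe sets was 3 without knockout 1, 5 without wild type 2, 1 after quantile normalization and 3 after median centring.

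In limma, 0 of the 15 class I probe sets had an adjusted p under 0.05, and 0 had an unadjusted p under 0.05. Across the array 0% of probe sets passed the adjusted threshold and 5.08% had an unadjusted p under 0.05. The knockout mean was above the wild type mean at 7 of the 15 and below it at 8, where 37.7% of all probe sets had a higher one. The class I median difference was -0.003, against -0.023 over all probe sets, and without knockout 1 again 7 of the 15 were higher, with a median of -0.02. The split turned with the scaling: after quantile normalization and after median centring 11 of the 15 class I probe sets had a higher knockout mean, with medians of 0.029 in both, where 47.8% and 55.4% of all probe sets did. Knockouts and wild type did not overlap at 1 of the 15 probe sets, where 10.4% of all probe sets did not. All 15 intervals held 0, and the farthest bound of any of them was 0.38 log2, or 1.30-fold.

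**Figure D1:**
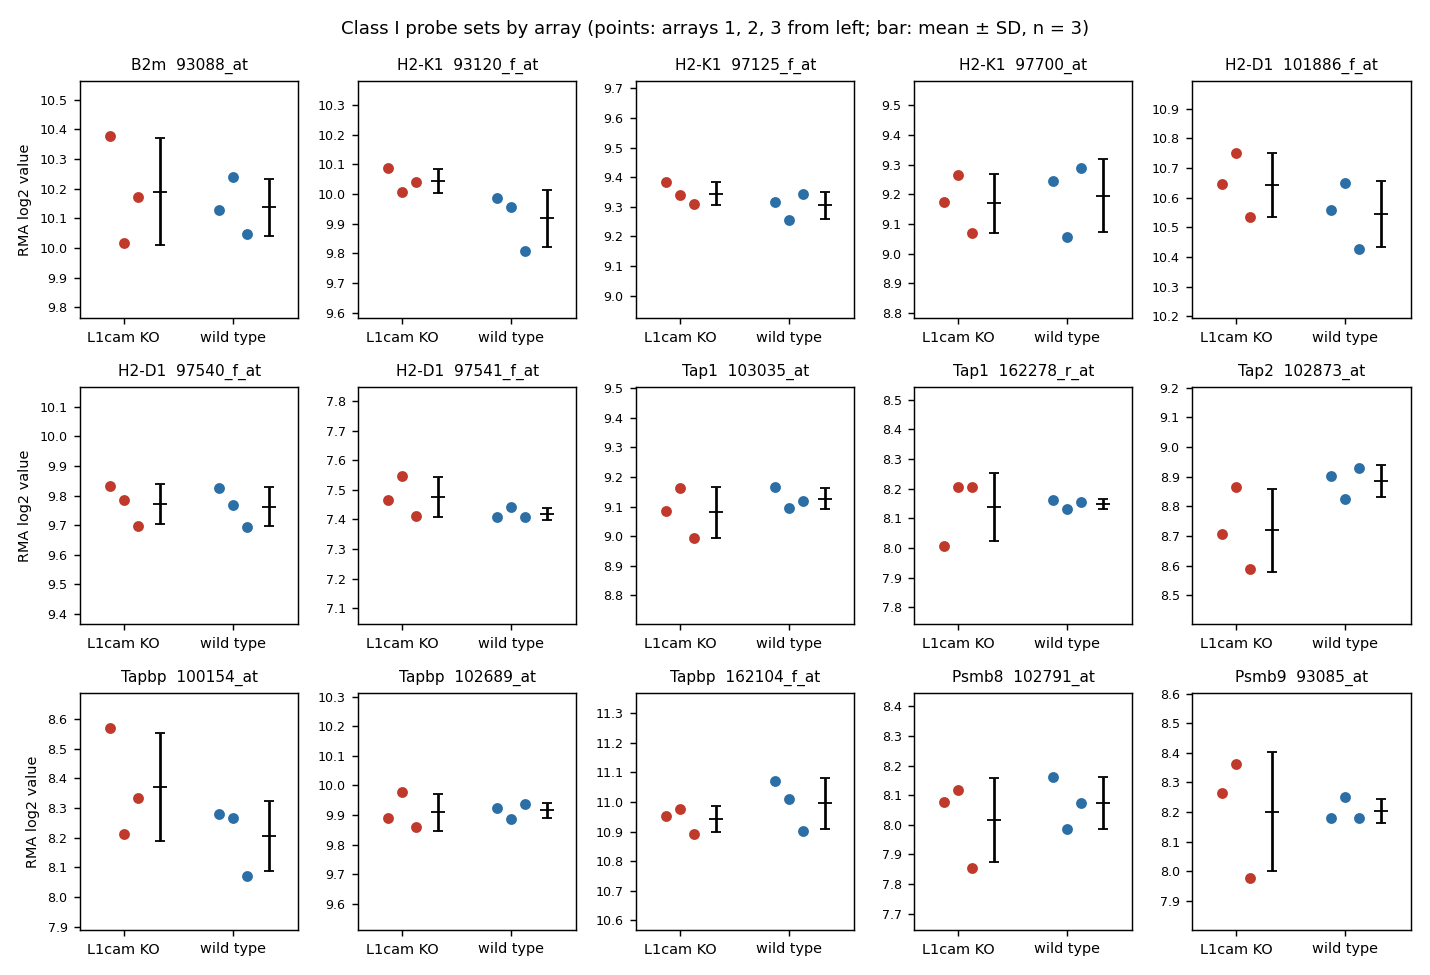
RMA log2 values (vertical axis, 0.8 log2 high in every panel) of the 15 class I probe sets in 3 L1cam knockout arrays (red, left) and 3 wild type arrays (blue, right), with the mean ± SD as a bar beside each group. The groups overlap in every panel but that of H2-K1 93120_f_at, where the knockouts lie at 10.01 to 10.09 and wild type at 9.81 to 9.99.

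B2m, the light chain that every classical class I molecule needs to reach the surface, has a single probe set. It read 10.38, 10.02 and 10.17 in the knockout arrays and 10.13, 10.24 and 10.05 in the wild type arrays. The knockouts held both the highest and the lowest value, with all wild type arrays between them. The means were 10.19 ± 0.18 in knockouts and 10.14 ± 0.10 in wild type (SD, n = 3 each), a difference of 0.05 (SE 0.09, 95% interval -0.16 to 0.26, limma adjusted p = 0.960). Without knockout 1, which holds the highest value, the difference was -0.04.

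H2-K1, a classical heavy chain, has 3 probe sets. At 93120_f_at it read 10.09, 10.01 and 10.04 in the knockout arrays and 9.99, 9.96 and 9.81 in the wild type arrays. Every knockout lay above every wild type array, by 0.02 at the closest, and wild type 3 was the lowest. Across the array, 3.76% of probe sets had all knockouts above all wild type arrays. The difference was 0.13 (SE 0.07, 95% interval -0.02 to 0.28, limma adjusted p = 0.922), 0.11 without knockout 1 and 0.07 without wild type 3.

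The other H2-K1 probe sets did not separate the groups. At 97125_f_at the knockouts read 9.39, 9.34 and 9.31 and wild type 9.31, 9.26 and 9.34, a difference of 0.04. At 97700_at the knockouts read 9.18, 9.27 and 9.07 and wild type 9.24, 9.05 and 9.29, a difference of -0.03. The spread among the arrays of a group was wider at the second of these than at the first, with ranges over all arrays of 0.23 and 0.13. Without knockout 1 the differences were 0.02 and -0.03. With all arrays the differences of the 3 probe sets for this gene spanned 0.15.

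H2-D1, the other classical heavy chain measured, had a higher knockout mean at all of its 3 probe sets. At 101886_f_at it read 10.65, 10.75 and 10.53 in the knockout arrays and 10.56, 10.65 and 10.43 in the wild type arrays. The groups overlapped widely, with knockout 2 highest and wild type 3 lowest, and the difference was 0.10 (SE 0.08, 95% interval -0.08 to 0.27, limma adjusted p = 0.932). The other H2-D1 probe sets differed by 0.01 (97540_f_at, limma adjusted p = 0.985) and 0.06 (97541_f_at, limma adjusted p = 0.932). Without knockout 1 the differences were 0.10 at 101886_f_at, -0.02 at 97540_f_at and 0.06 at 97541_f_at. The last probe set was the dimmest of the 15, at percentile 22.9 of mean level.

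All of the H2-D1 and H2-K1 probe sets but 97700_at carry the suffix f, which Affymetrix gives to probe sets that match several members of a sequence family. Their values may therefore hold signal from other class I heavy chains. Another 3 probe sets list H2-K1 or H2-D1 beside further class I genes and were not counted as members. They differed by 0.03 (102161_f_at), -0.01 (95773_at) and 0.01 (97174_r_at). Heavy chains vary between mouse strains, and how the probes match the alleles of this strain was not analysed here.

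Tap1 and Tap2 form the peptide transporter as a pair of half-transporters. Tap2 had the largest difference below 0 of the 15 probe sets and their smallest unadjusted p. It read 8.71, 8.86 and 8.59 in the knockout arrays and 8.90, 8.83 and 8.93 in the wild type arrays. Knockout 1 and knockout 3 lay below all wild type arrays and knockout 2 within their range. The difference was -0.17 (SE 0.08, 95% interval -0.34 to 0.01, unadjusted p = 0.0564, limma adjusted p = 0.922). Without knockout 1 it was -0.16, and without knockout 3, the lowest array, -0.10.

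Tap1 differed less from 0 at both of its probe sets. At 103035_at it read 9.09, 9.16 and 8.99 in the knockout arrays and 9.16, 9.10 and 9.12 in the wild type arrays, a difference of -0.05 (95% interval -0.19 to 0.10). At 162278_r_at the knockouts read 8.01, 8.21 and 8.20 and wild type 8.16, 8.13 and 8.16, a difference of -0.01. Knockout 1 lay below all wild type arrays at both probe sets, and without it the differences were -0.05 and 0.06. Neither passed (limma adjusted p = 0.945 and 0.985).

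Tapbp encodes tapasin, which holds an empty class I molecule beside the transporter while it takes up a peptide. Its 3 probe sets disagreed most of all the genes with several, with differences that spanned 0.22. At 100154_at it read 8.57, 8.21 and 8.33 in the knockout arrays and 8.28, 8.27 and 8.07 in the wild type arrays. Knockout 1 was highest and wild type 3 lowest, and the range of 0.50 over the arrays was at least as wide as at 95.5% of all probe sets. The difference was 0.17 (SE 0.10, 95% interval -0.05 to 0.38, limma adjusted p = 0.927) and was 0.07 when knockout 1 was left out.

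At the other Tapbp probe sets the arrays lay closer together. At 102689_at the knockouts read 9.89, 9.98 and 9.86 and wild type 9.92, 9.89 and 9.94, a difference of -0.006 (95% interval -0.14 to 0.13). At 162104_f_at the knockouts read 10.95, 10.98 and 10.89 and wild type 11.07, 11.01 and 10.90, a difference of -0.05 (95% interval -0.20 to 0.09). Without knockout 1 the differences were 0.0038 and -0.06. The groups overlapped at both, and the higher Tapbp mean in knockouts at 100154_at was not seen at either.

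Psmb8 and Psmb9 are catalytic subunits that replace Psmb5 and Psmb6 when cells build the immunoproteasome, the form that interferon induces. Psmb8 read 8.08, 8.12 and 7.86 in the knockout arrays and 8.16, 7.98 and 8.07 in the wild type arrays, a difference of -0.06 (SE 0.08, 95% interval -0.24 to 0.13). Psmb9 read 8.26, 8.36 and 7.98 in the knockout arrays and 8.18, 8.25 and 8.18 in the wild type arrays, a difference of -0.003 (SE 0.09, 95% interval -0.21 to 0.20). Knockout 3 was the lowest array for both, and knockout 2 was the highest for Psmb9. Neither passed (limma adjusted p = 0.945 and 0.996), and the differences were 0.02 and 0.11 without knockout 3 and -0.09 and -0.03 without knockout 1. Psmb10, the subunit that takes the place of Psmb7, differed by 0.01.

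**Figure D2:**
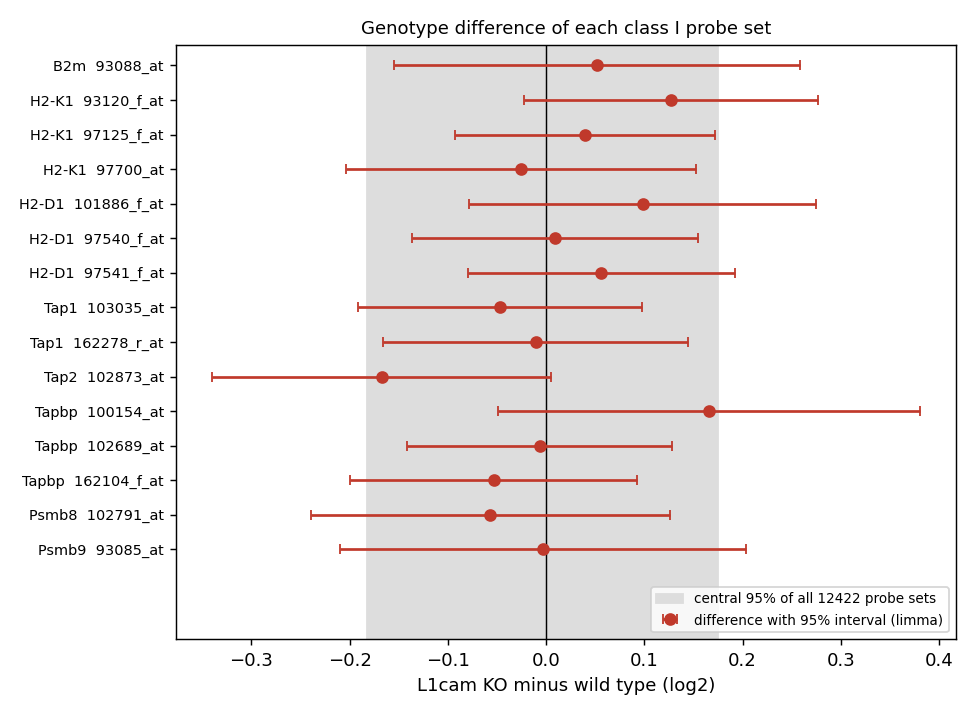
Difference in RMA log2 value, L1cam knockout minus wild type (horizontal axis), at each class I probe set, with its 95% interval from limma, n = 3 arrays per genotype. The grey band holds the central 95% of all 12422 differences, from -0.18 to 0.18, and all 15 points lie inside it.

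The arrays differed from each other in class I values across both genotypes. Knockout 3 was the lowest array at 6 of the 15 probe sets and the highest at none, while over all probe sets it was lowest at 29.2% and highest at 10.5%. Knockouts 1 and 2 were the highest at 5 probe sets each, and wild type 3 was the lowest at 4. Over all probe sets knockout 1 was highest at 15%, knockout 2 was highest at 17.7% and wild type 3 was lowest at 15.2%. Taken as the median deviation of the 15 probe sets from their 6-array means, knockout 1 stood at 0.03, knockout 2 at 0.06 and knockout 3 at -0.06. The wild type arrays stood at 0.01, -0.007 and -0.02. Over all probe sets the same medians were -0.011, 0.012 and -0.028 in the knockout arrays and 0.024, -0.0015 and 0.0080 in the wild type arrays. For class I the 2 extreme arrays were of the same genotype. Leaving out knockout 3 gave 11 of 15 class I probe sets with a higher knockout mean, against 44.6% of all probe sets, and a class I median of 0.05.

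**Figure D3:**
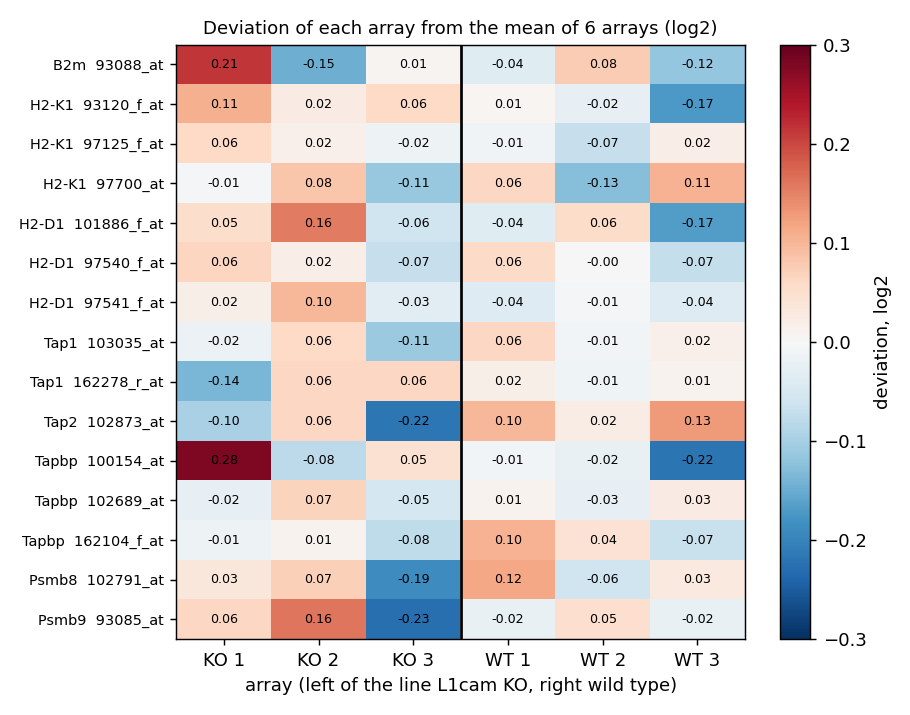
Deviation of each array from the mean of the 6 arrays, in log2 units (colour and printed number), for the 15 class I probe sets (rows), with L1cam knockout arrays left of the line and wild type arrays right of it. Knockout 3 is below the mean by 0.19 to 0.23 at Tap2, Psmb8 and Psmb9, and knockout 1 is above it by 0.21 at B2m and 0.28 at Tapbp 100154_at.

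Within the class I genes, B2m and the Tapbp probe set 100154_at had similar array patterns, with knockout 1 high and wild type 3 and knockout 2 low. Likeness to B2m was measured as the mean absolute difference in deviation over 6 arrays, and it was 0.07 for this Tapbp probe set, 0.09 for H2-K1 93120_f_at and 0.20 for Tap2. Among 1718 probe sets of other genes with at least the range of B2m, the most alike were Zscan21 at 0.017, Cdk4 at 0.025 and Emg1 at 0.028. Their values in knockout 1 were their highest, at 10.45, 12.40 and 10.48, which a selection for the B2m pattern favours. A selection of the nearest among so many probe sets over 6 arrays will always return close matches.

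Genes that act with the class I members were read from lists of symbols, all against the array-wide share of 37.7% with a higher knockout mean. Of 17 probe sets for 12 genes of peptide trimming and loading, 11 were higher and 6 lower in the knockouts, with a median of 0.04 and none past the adjusted threshold. Without knockout 1 the count was 9 with a median of 0.0048, and without wild type 3 it was 9 with a median of 0.0002. Derl1, a protein of endoplasmic reticulum export, read 10.02, 10.01 and 9.95 in the knockout arrays and 9.89, 9.88 and 9.80 in the wild type arrays, a difference of 0.14 (limma adjusted p = 0.922). All knockouts lay above all wild type arrays at this probe set, as at 3.76% of all probe sets. The other Derl1 probe set differed by 0.04. The chaperones that fold the heavy chain, Canx, Calr and Pdia3, differed by 0.06 and 0.01 (Canx), -0.04 (Calr) and -0.02 (Pdia3). Hspa5, a further chaperone of the list, differed by -0.17, the farthest from 0 in the list (limma adjusted p = 0.932). Psme1, an activator of the proteasome that interferon induces, differed by 0.09 and 0.10, and the peptidase Tpp2 by -0.09 and -0.04. The Psme1 probe set at 0.10 and the Tpp2 probe set at -0.09 lay at percentiles 7.4 and 2.5 of mean level, near the bottom of the range.

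Subunits of the constitutive proteasome, which Psmb8 and Psmb9 replace or join, had a higher knockout mean at 18 of 19 probe sets for 14 genes. None of them passed the adjusted threshold, and the median was 0.08. No probe set separated the groups, where 10.4% of all probe sets did. The mean level of the 19 probe sets was 11.001, 10.88 and 10.943 in the knockout arrays and 10.818, 10.945 and 10.815 in the wild type arrays. Wild type 2 thus lay above knockout 2 and knockout 3. Psma6, a ring subunit, differed by 0.18 and Psmb1 by 0.16 at its probe set of smallest p (limma adjusted p = 0.922 for both), and Psma2 by 0.11 (limma adjusted p = 0.927). The exchanged subunits Psmb5, Psmb6 and Psmb7 differed by 0.14 and 0.01, by 0.10 and by 0.13. The share varied with level across the array: at or above percentile 85 of mean level, where 14 of the 19 lie, 54.7% of all probe sets had a higher knockout mean. With each array left out in turn 16 to 18 of the 19 were higher, and 18 without knockout 1.

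Other class I genes gave no call. Of 13 probe sets for 12 genes, among them H2-Q, H2-T and H2-M genes, 7 were higher and 6 lower in the knockouts, with a median of 0.02. Without knockout 2 the count was 3, and without knockout 1 it was 8. Mr1, which presents vitamin metabolites, differed by -0.07 and lay at percentile 9.2 of mean level, near the bottom of the range. It read lower in all knockouts than in any wild type array, as did 6.63% of all probe sets. Cd1d1, which presents lipids, differed by -0.12 and H2-T24 by -0.07. Among 13 probe sets for receptors of class I and their partners, 6 were higher and 7 lower, with Klra3 at -0.13, Cd8b1 at -0.13 and Cd8a at 0.08, and none passed. The count of higher receptor probe sets was 3 without knockout 2, 3 without wild type 2 and 7 without knockout 1.

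The interferon pathway, the main inducer of class I, gave no call either. Of 22 probe sets for 17 receptors and regulators, 9 were higher and 13 lower in the knockouts, with a median of -0.07. After quantile normalization and after median centring the count was again 9 and the median -0.037, and the count was 6 without knockout 2 and 8 without knockout 1. Irf3, a factor that switches on interferon genes, read 8.53, 8.60 and 8.58 in the knockout arrays and 8.72, 8.84 and 8.63 in the wild type arrays at its brighter probe set. All knockouts were below all wild type arrays there, as at 6.63% of all probe sets. The difference was -0.16 (limma adjusted p = 0.922). The groups did not overlap at 3 of these 22 probe sets, where 10.4% of all probe sets did not. Irf1, which binds the interferon motif of class I promoters, differed by -0.11 (limma adjusted p = 0.927). Ifngr1, a receptor chain for interferon gamma, differed by -0.12, Ifnar2, a receptor chain for type I interferon, by -0.18 and 0.05, and Rela, a subunit of NF-kappaB, by 0.01 and 0.10.

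Of 25 probe sets for 24 interferon targets outside class I, 6 were higher and 19 lower in the knockouts, with a median of -0.04. After quantile normalization and after median centring 11 of the 25 were higher, with medians of -0.0087 and -0.0070, where 47.8% and 55.4% of all probe sets were. The count was 11 without knockout 3, 12 without wild type 1, 4 without knockout 2 and 8 without knockout 1. Oas1g, an antiviral enzyme, differed by -0.14, the GTPase Irgm1 by 0.11 and Iigp1 by -0.12 and 0.03 (limma adjusted p at least 0.922 for all). Oas1g and Irgm1 lay at percentiles 7.8 and 8.1 of mean level, near the bottom of the range.

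Class II genes, which present peptides from outside the cell and mark professional antigen-presenting cells, had a lower knockout mean at 12 of 12 probe sets for 11 genes, where 62.3% of all probe sets did. After quantile normalization 2 of the 12 were higher and after median centring 3, and the median stayed below 0. None passed and none separated the groups, where 10.4% of all probe sets did, and the median was -0.06. H2-Eb1, a class II chain, differed by -0.11, H2-Aa by -0.10, H2-Oa by -0.08 and the invariant chain Cd74 by -0.13 (limma adjusted p = 0.932 for each). The mean level of the 12 probe sets was 9.21, 9.33 and 9.13 in the knockout arrays and 9.33, 9.24 and 9.29 in the wild type arrays. Without knockout 3, the lowest, 4 of the 12 were higher in the knockouts, and without knockout 1 or without wild type 1, 2 were.

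**Figure D4:**
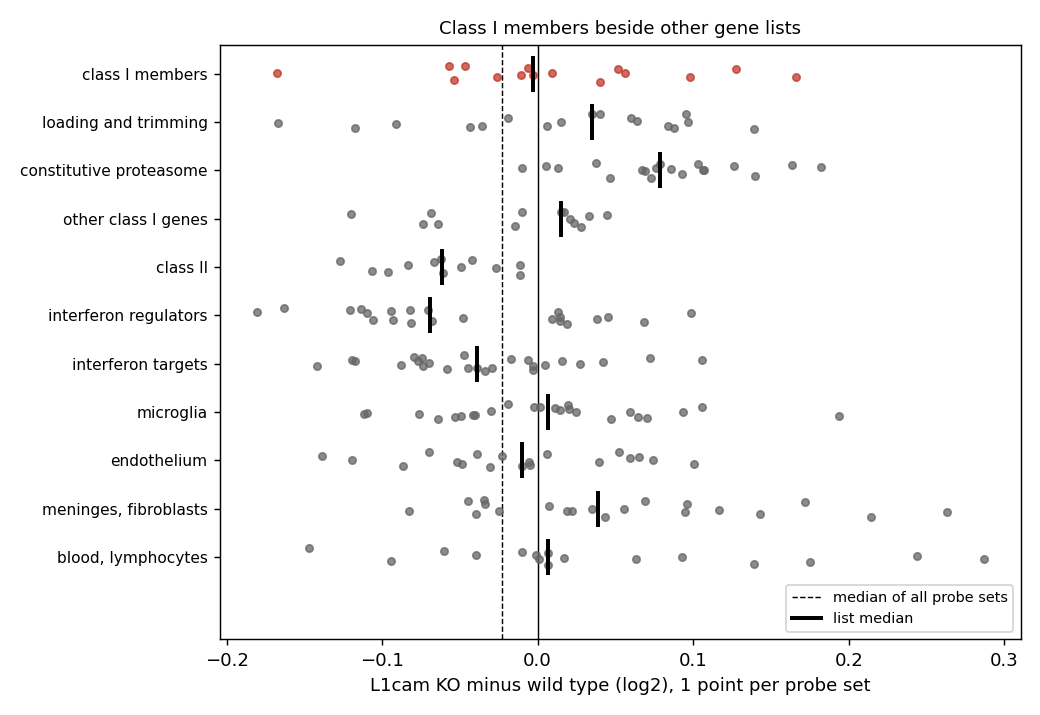
Difference in RMA log2 value, L1cam knockout minus wild type (horizontal axis), of each probe set in the class I group (red) and in other gene lists (grey), with the list median as a black bar and the median of all probe sets, -0.023, as a dashed line. The class I points lie between -0.17 and 0.17, and none of the points shown passed the adjusted threshold.

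In bulk tissue, fewer cells of a type and less RNA per cell cannot be told apart, so markers of the cells that carry class I were read beside it. Microglial markers had 13 of 24 probe sets higher (9 to 16 with single arrays left out, 11 without knockout 1), with mean levels of 8.06 to 8.15 in knockout arrays and 8.06 to 8.17 in wild type arrays. Cx3cr1 differed by -0.11, and C1qb by 0.19 and -0.11 at its probe sets. Endothelial markers had 7 of 19 higher, with mean levels of 8.80 to 8.84 in knockout arrays and 8.80 to 8.87 in wild type arrays, with Nos3 at -0.14, Emcn at -0.12, -0.09 and -0.07 and Cdh5 at 0.10. Cldn5 differed by 0.06, Tek by 0.05 and Pecam1 by -0.005. After quantile normalization and after median centring 12 of the 19 were higher, where 47.8% and 55.4% of all probe sets were. Without knockout 1 the count was 8. The ranges of mean level overlapped for both cell types. They did so for the class I genes themselves too, at 9.13 to 9.24 in knockout arrays and 9.16 to 9.22 in wild type arrays.

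Markers of meninges and fibroblasts had 14 of 20 probe sets higher, with mean levels of 9.233 to 9.274 in knockout arrays and 9.164 to 9.226 in wild type arrays. These did not overlap, and Ogn, a small matrix proteoglycan, differed by 0.26 and Col3a1 by 0.21, 0.17 and 0.14. Col1a1 differed by 0.043 and -0.045, Col1a2 by 0.022 and -0.083 and Dcn by 0.096. Of the 20 probe sets, 13 were higher without knockout 1 and 11 without knockout 2 or without wild type 2. After quantile normalization 17 were higher and after median centring 15, where 47.8% and 55.4% of all probe sets were. Blood and lymphocyte markers had 10 of 16 higher (7 without knockout 1), with mean levels of 8.58 to 8.69 in knockout arrays and 8.55 to 8.66 in wild type arrays. Hba-a1, an alpha globin, differed by 0.29, Hbb-b2 by 0.24 and the T cell gene Cd3e by -0.15 (limma adjusted p = 0.841 for Hba-a1 and 0.922 for the others). Ttr, which marks choroid plexus, read 12.56, 12.43 and 10.20 in the knockout arrays and 9.71, 12.55 and 12.13 in the wild type arrays, low in 1 array of each genotype. Over all choroid plexus markers 2 of 6 probe sets were higher, with Aqp1 at -0.07 and -0.02 and Folr1 at -0.05 and 0.06. That count was 6 without knockout 3, 0 without knockout 2, 1 without knockout 1 or wild type 1 and 4 without wild type 2, and it was 3 after quantile normalization and 4 after median centring. The part of these tissues in the class I values was not tested.

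A level in the middle of the range is not a detection call. Cd3e, a gene of T cells, lay at percentile 68.6 of mean level and H2-Aa at 70.8, while Ptprc, the marker of all white blood cells, lay at 1.3, 2.8 and 15.2. The class I probe sets lay between percentiles 22.9 and 87.9. Probe sets differ in how strongly they bind their transcript, so these percentiles do not order the genes by transcript amount.

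**Figure D5:**
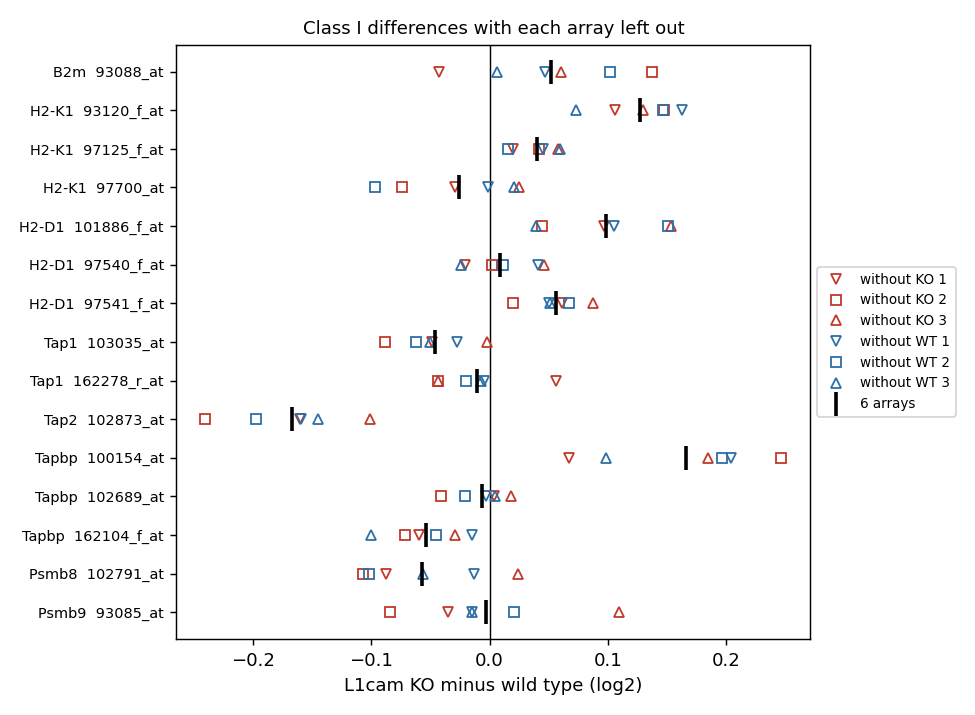
Difference in RMA log2 value, L1cam knockout minus wild type (horizontal axis), at each class I probe set with all 6 arrays (black bar) and with each array left out (red marks, a knockout left out; blue marks, a wild type array left out). B2m ran from -0.04 without knockout 1 to 0.14 without knockout 2, while Tap2 stayed between -0.24 and -0.10 and H2-K1 93120_f_at between 0.07 and 0.16.

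With single arrays left out, 8 of the 15 differences kept their sign in every fit, and in the fits after other scalings too. These were H2-K1 at 93120_f_at and 97125_f_at, H2-D1 at 101886_f_at and 97541_f_at, Tap1 at 103035_at, Tap2, and Tapbp at 100154_at and 162104_f_at. Their size varied with the array left out: Tap1 103035_at ran from -0.088 to -0.0025, Tapbp 162104_f_at from -0.100 to -0.015, H2-K1 97125_f_at from 0.015 to 0.060, H2-D1 97541_f_at from 0.020 to 0.088 and H2-D1 101886_f_at from 0.039 to 0.153. Tapbp 100154_at ran from 0.067 to 0.247. No class I probe set passed in any of them, and the lowest limma adjusted p was 0.571, for Tap2 and for Tapbp 100154_at, both without knockout 2 and of opposite sign.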

How the data were processed

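The authors deposited log2 expression values per probe set made with RMA, per the submitters' processing notes. Its version and settings were not given in the sources used here, nor was a build. RMA scales arrays towards 1 distribution, so an overall change in RNA amount cannot be read. The table held 12488 rows, and all but 66 controls were tested, 12422 in number. The array annotation gave the symbols (1 symbol for 10833 probe sets, several for 396, none for 1193), and all 15 class I probe sets matched the same symbol in a RefSeq table of GRCm38.p6. Arrays correlated at 0.9948 to 0.9974 and carry no read depth, and the 95% interval reached 0.158 to either side at the median.

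Genotype was tested with limma 3.58.1 in R 4.3.3 (lmFit, eBayes, 2-sided, Benjamini-Hochberg over all 12422, threshold 0.05), a procedure tested on simulated data. There 95% of probe sets changed 1.5-fold and 100% of those changed 2-fold were called, with 13 false calls. The simulated noise was independent between probe sets, and L1cam, at -0.60 in the real arrays, did not pass (limma adjusted p = 0.841). The simulated shares are therefore not the power of these arrays. The class I genes and the gene lists were chosen with earlier results of these data known. Every class I probe set is named, as are the 3 of smallest unadjusted p from each list. Some but not all of the cell type markers fixed beforehand are named too. Other pathway genes and cell type markers named beside them, such as Irf1, Rela, Canx and Psmb5, were chosen for their role after their values were seen. Figures were drawn with matplotlib 3.10.9. Tests were recomputed after quantile normalization, median centring, with the dimmest 40% of probe sets removed, with eBayes trended and robust, with the replicate number as a block, without each array, with 1 value per gene and at a threshold of 0.1.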

Additional observations from a re-analysis of the deposited data

How the results depend on the processing

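The count of class I probe sets past the threshold was 0 under all 13 alternatives. Over all probe sets it was 0 in each but the fit without knockout 3, which gave 1, for Sox11, so it ran from 0 to 1 over the single omissions. With the replicate number as a block both counts were again 0 and the class I adjusted p in limma ran from 0.993 to 0.997. Deviations of same-numbered arrays from their group means correlated at 0.160, -0.316 and 0.169 over all probe sets. Of the 6 arrays only knockout 1 and wild type 3 correlated best with their own number. Deviations within a group sum to 0, which ties these correlations together, so they cannot decide whether same-numbered arrays are pairs. The main fit treated the arrays as unpaired. The class I median of -0.003 ran from -0.041 without knockout 2 to 0.046 without knockout 3. The last of these moved by more than the 0.047 (SD) between arrays, and the cause was not tested. The trended and robust eBayes and the block leave each class I difference as in the main fit, so no sign could turn there. With those fits counted, 20 of 150 recomputed class I differences took the other sign. All of these were at 7 probe sets with differences as deposited from -0.057 to 0.0515. After quantile normalization and after median centring these were 0.0039 and 0.0060 for H2-K1 97700_at, 0.030 and 0.029 for Psmb9, 0.029 and 0.021 for Tap1 162278_r_at, and 0.0024 and 0.0254 for Tapbp 102689_at. With single arrays left out, B2m ran from -0.043 to 0.137, H2-D1 97540_f_at from -0.025 to 0.046 and H2-K1 97700_at from -0.096 to 0.025. Psmb8 ran from -0.107 to 0.024, Psmb9 from -0.084 to 0.109, Tap1 162278_r_at from -0.044 to 0.056 and Tapbp 102689_at from -0.041 to 0.018. Scaling moved the split of all probe sets from 37.7% with a higher knockout mean as deposited to 47.8% after quantile normalization and 55.4% after median centring, both splits added after seeing the data. For class I it was 11 of 15 in both, for the constitutive proteasome 17 and 19 of 19, and for class II 2 and 3 of 12.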
